A study of Mus musculus with 20 samples.

Results

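The peaks described here are the long pRb peaks of arrested mouse embryonic fibroblasts. pRb is the retinoblastoma tumour suppressor. They were chosen by length: autosomal peaks of at least 500 bp in the peak lists of arrested SS cells and of arrested WT cells. There were 14481 such peaks among the 617903 autosomal pRb peaks of SS cells and 3508 among the 401665 of WT cells. Together they made 17989 of the 4480164 peaks in the 10 lists of the study. The rule used the lengths of the peaks in these 2 lists, so their number, length and score are given as a description, and only overlap with other lists and position bear on anything the rule did not use.

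pRb is a nuclear protein that binds E2F transcription factors and, in its underphosphorylated form in arrested cells, holds cell cycle genes silent. It also brings chromatin regulators to DNA. Ezh2 is the methyltransferase of Polycomb repressive complex 2, and H3K27me3 is the repressive histone mark that this complex writes, often over broad domains. Endogenous retroelements, whose silencing by this tumour suppressor the series title names, are repeated sequences scattered through the genome.

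The cells were embryonic fibroblasts of C57BL/6 mice, from embryos of stage E13.5, used at passage 4 and fixed with EGS and formaldehyde. The labels name the genotypes SS and WT and do not spell out SS. The labels of the arrested pRb libraries name confluence as the arrest but also 72 h in 0.1% serum, and they list 5 pRb antibodies. Ezh2 was assayed in serum-deprived SS and WT cells, H3K27me3 in serum-deprived and in proliferating SS and WT cells, and pRb also in proliferating SS and WT cells. Serum-deprived cells had 72 h in 0.1% serum for these antibodies too, and proliferating cells were in 10% serum. Each group had 1 library, so differences could not be set against replicates and p-values are left out. Intervals below are Wilson 95% intervals over peaks. They cover counting error alone, and neighbouring peaks are not independent. Sequencing depth is unknown from the peak lists.

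Long peaks were rare in both lists and more frequent in SS cells. They made up 2.34% of SS and 0.873% of WT pRb peaks, and held 6.65% and 2.73% of the covered length. The SS list had 4.13 times as many long peaks as the WT list, against 1.54 times as many autosomal peaks of any length. Their median length was 588 bp in SS and 561 bp in WT cells, and 90% of them were no longer than 730 bp and 665 bp. Only 221 SS and 40 WT peaks reached 1000 bp, and 21 SS and 5 WT peaks reached 2000 bp. A further 1012 SS and 239 WT peaks of at least 500 bp lay on X, and 30 SS and 0 WT peaks on Y, outside the rule. The other pRb lists held few peaks of this length on autosomes, 59 in proliferating SS and 28 in proliferating WT cells.

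The excess of long peaks in SS cells set in between 400 and 500 bp. Up to 399 bp the SS list held 1.42 to 1.44 times as many peaks as the WT list in each length class. From 400 to 499 bp the ratio was 4.66, from 500 to 599 bp 3.22, from 600 to 749 bp 5.96 and from 750 to 999 bp 8.65. In both lists the numbers ran level and then dropped, but at different lengths. In the SS list they dropped between 420 and 480 bp, with 14054 peaks of 420 to 439 bp against 3336 of 460 to 479 bp. In the WT list they dropped between 380 and 440 bp, with 9569 peaks of 380 to 399 bp against 1314 of 420 to 439 bp.

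The shortest peak measured 148 bp in the SS list, where 18.9% of peaks had that length, and 136 bp in the WT list, where 39.1% did. In units of the shortest length both drops fell around 3 lengths, and the 500 bp threshold stood at 3.38 lengths in SS and 3.68 in WT cells. With the threshold at the same multiple in both lists, 544 bp in SS and 500 bp in WT cells, 10441 SS peaks remained against 3508 WT peaks, a ratio of 2.98. The ratio at a fixed length of 500 bp, 4.13, was thus the larger. Below 3 lengths the ratio was 1.48 to 1.62, and above 3 lengths 2.54 to 5.00.

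**Figure D1:**
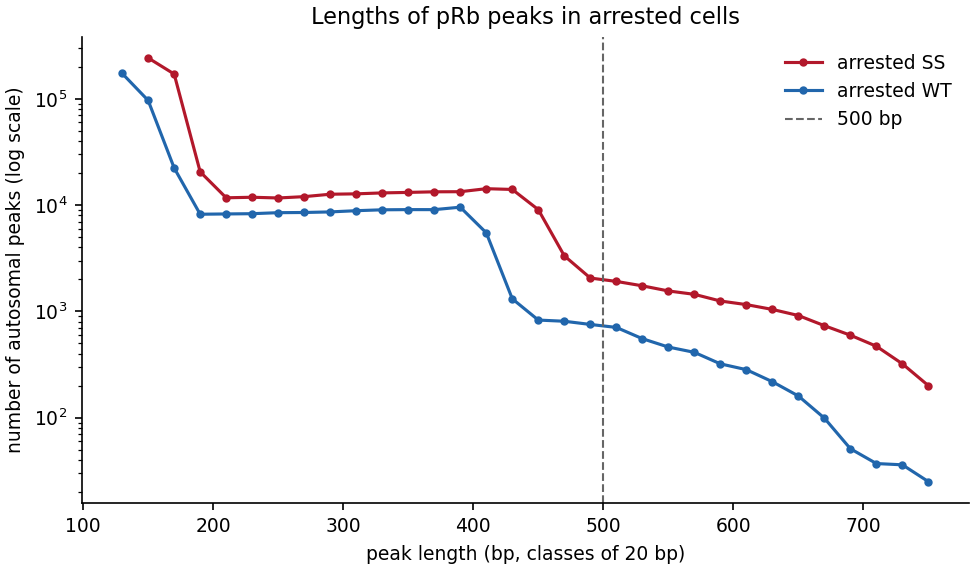
Number of autosomal pRb peaks in classes of 20 bp (x axis, length in bp; y axis, number of peaks on a log scale) in arrested SS and arrested WT cells; the dashed line marks 500 bp. Both lists run level and then drop, SS between 420 and 480 bp and WT between 380 and 440 bp.

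The long peaks were spread over all autosomes. Their density ran from 5.23 per Mb on chromosome 2 to 7.27 per Mb on chromosome 4 in SS cells, and from 1.20 per Mb on chromosome 3 to 1.74 per Mb on chromosome 5 in WT cells. The SS to WT ratio lay above 1 on each of the 19 autosomes, from 3.41 on chromosome 17 to 5.25 on chromosome 3.

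Long peaks did not carry the higher scores of their lists. The score is the authors' own value per peak, and its scale is not given in the sources used here. It is compared only within a list, apart from a common minimum score among the other settings at the end. The median score was 89.7 for long and 119 for shorter peaks in SS cells, and 76.4 for long and 108 for shorter peaks in WT cells. Of the long peaks, 37.0% in SS and 31.1% in WT cells scored above the median of their own list. Scores were highest in the shortest class, to 199 bp, with medians of 129 in SS and 110 in WT cells. They were lowest at 400 to 499 bp in SS cells, with a median of 63.4, and at 1000 bp or more in WT cells, with 47.5. Peaks just inside and just outside the threshold scored alike: 95.3 at 500 to 509 bp and 90.8 at 490 to 499 bp in SS cells, and 77.4 and 78.6 in WT cells.

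**Figure D2:**
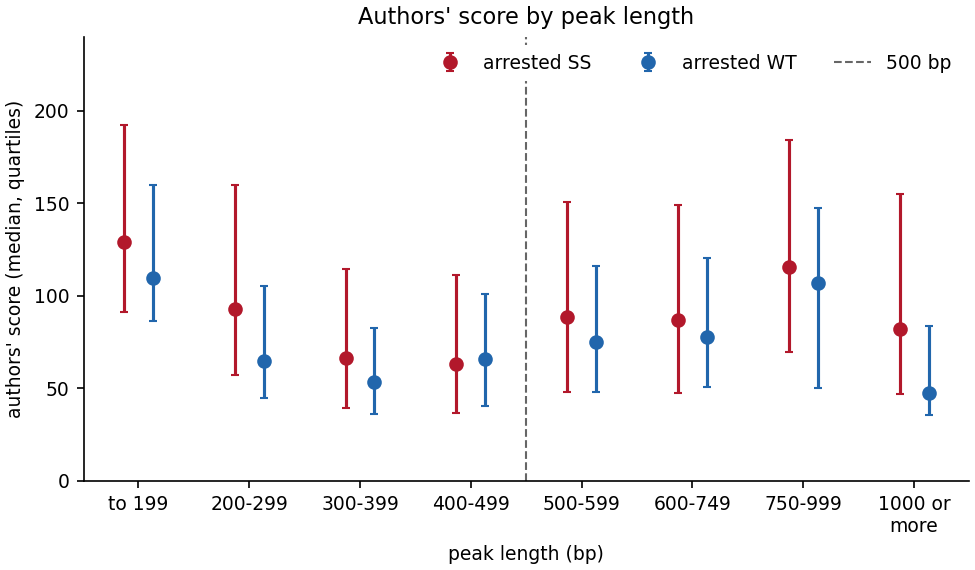
Authors' score (y axis, no unit; points are medians and bars run from the lower to the upper quartile) by peak length in bp (x axis) for arrested SS and arrested WT pRb peaks. Medians are highest in the shortest class, 129 in SS and 110 in WT cells, and those of peaks over 500 bp lie within the range of the shorter classes except for WT peaks of 1000 bp or more, at 47.5.

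A few long peaks stood at the very top of the score order. They made 5 of the 10 highest scores in SS and 2 of the 10 in WT cells, but then 11 and 3 of the 1000 highest. A pair of places was among the 3 highest long peaks of both lists (positions here and below are in mm9). On chromosome 1 the SS peak at 24618280-24623118 and the WT peak at 24618291-24623103 both scored 3100, the highest value in either list. In the SS list 2 long peaks and 1 shorter peak had this value, and whether it is a ceiling of the score is unknown. On chromosome 2 the SS peak at 22442711-22445814 scored 3100 and the WT peak at 22442738-22445793 scored 541. At both places the WT peak lay wholly within the SS peak, and of the other 8 lists the proliferating WT pRb list alone had a peak there.

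Other long peaks of high score in SS cells lay where the WT list also had a peak. On chromosome 2 the SS peak at 69193407-69194114 scored 2435, over a WT peak of 443 bp that scored 262. On chromosome 12 the SS peak at 98299543-98300098 scored 2177, over a WT peak of 531 bp that scored 251. On chromosome 5 the SS peak at 60433861-60434405 scored 1237, over a WT peak of 399 bp that scored 491. None of these 5 highest SS peaks met an Ezh2 or H3K27me3 peak. In WT cells the second of the long peaks by score, on chromosome 6 at 103598728-103599371, scored 1015 and met both Ezh2 lists and the arrested WT H3K27me3 list. An SS peak of 431 bp with a score of 3100 overlapped it. The next WT peaks after the place on chromosome 2 had no SS pRb peak. They lay on chromosome 17 at 34528857-34529592, with a score of 444, and on chromosome 3 at 70396399-70397051, with a score of 440, and both met the SS Ezh2 list and the arrested WT H3K27me3 list.

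Apart from the places on chromosomes 1 and 2 named first, the longest peaks had low scores and mostly lay where many other lists had peaks. The longest in the WT list measured 5989 bp, on chromosome 17 at 39979867-39985855, with a score of 20.3 against a lowest long-peak score of 20.1. Both Ezh2 lists and all 4 H3K27me3 lists had a peak there, and the SS pRb list had none. In the SS list, the peak of 4278 bp on chromosome 1 at 85269767-85274044 scored 60.0 and met 6 of the other 9 lists. The SS peak of 3107 bp on chromosome 5 at 14987334-14990440 scored 26.9 and met 8 of 9. The WT peak of 2439 bp on chromosome 5 at 15197778-15200216 scored 58.7 and also met 8 of 9. The WT peak of 3188 bp on chromosome 11 at 3026976-3030163 scored 32.0 and met the proliferating H3K27me3 lists alone.

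The first comparison asked whether long peaks recurred in the other genotype. As the background, an expected share was computed for each peak: the fraction of start positions on its chromosome at which an interval of its length would touch a peak of the other list. Of the long SS peaks, 2023 (14.0%, 13.4 to 14.5) shared at least 1 bp with a WT pRb peak, against 13.1% expected, 1.07 times as many. Of the long WT peaks, 779 (22.2%, 20.9 to 23.6) touched an SS pRb peak, against 19.9% expected, 1.12 times as many. Over all peaks of each list the shares were 7.25% in SS and 11.1% in WT cells, and the shorter peaks stood at 1.07 times expectation in both lists. The share of long peaks was the higher, but a longer interval also touches more by placement, and in folds long and shorter peaks lay close together. Against only the higher-scoring 50% of the other genotype's list the folds turned below 1, to 0.850 for long SS and 0.845 for long WT peaks.

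Long peaks met long peaks of the other genotype more often. There were 123 long SS peaks (0.849%, 0.712 to 1.01) that overlapped a long WT peak, against 0.177% expected, or 4.81 times as many. Over all SS peaks the share was 0.132%. From the WT side 119 long peaks (3.39%, 2.84 to 4.04) overlapped a long SS peak, against 0.727% expected, or 4.66 times as many, and the share over all WT peaks was 0.527%. The shorter peaks stood at 0.986 times expectation in SS and 1.04 times in WT cells. Among the 779 long WT peaks that touched any SS peak, 15.3% touched a long one, against 3.66% expected. The pairs shared a median of 445 bp, or 70.8% of the shorter peak, and 91 of the 128 pairs shared at least 50% of it.

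This recurrence was uneven in length, score and place. By length, the fold for long SS peaks in long WT peaks was 1.98 at 500 to 599 bp, 3.60 at 600 to 749 bp, 10.6 at 750 to 999 bp and 59.5 at 1000 bp or more. By score it was highest in the lowest quartile of the long peaks. There 1.38% of the SS peaks were in a pair, 7.81 times the expected share, against 0.525% and 2.98 times in the highest quartile. Of the WT peaks 7.98% in the lowest quartile were in a pair, 10.8 times the expected share, against 1.37% and 1.89 times in the highest. The median score in the pairs was 57.3 in SS and 41.3 in WT cells, below the medians of all long peaks. By place, 68 of the 119 WT peaks in a pair (57.1%) lay in the 240 bins of 100 kb most covered by Ezh2 peaks, called dense bins here. Outside those bins 51 of 3294 long WT peaks were in a pair, against 22.5 expected, 2.27 times as many (1.73 to 2.97). Of the peaks of at least 750 bp outside those bins, 11 of 945 in SS cells met a long WT peak, 5.80 times expectation (3.25 to 10.3), and 6 of 99 in WT cells met a long SS peak, 7.04 times (3.26 to 14.6).

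Few pairs scored high in both lists. Pairs were ranked by the lower of the 2 ranks within their lists, each rank taken as a share of the long peaks of its list. After the leading places on chromosomes 1 and 2, the next pair lay on chromosome 12, where the SS peak named above ranked 4 of 14481 long peaks and the WT peak at 98299555-98300085 ranked 59 of 3508. The next lay on chromosome 5, with an SS peak at 21001745-21002267 that scored 219 and a WT peak at 21001889-21002447 that scored 149. A further pair, on chromosome 4, had an SS peak at 46891844-46892391 with a score of 371 and a WT peak at 46891745-46892389 with a score of 140. The last of the 10 leading pairs in this order, not all of which are named, lay on chromosome 5 at 37051847-37052418 in SS cells. Its SS peak scored 464 and its WT peak 99.0. Over the 128 pairs Spearman's rho between the SS and WT scores was 0.229, and over the 53 pairs outside the dense bins 0.390. These values are a description only, since the peaks of a pair share their place.

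Long peaks were clustered along chromosomes. Within 10 kb of another long peak of the same list lay 17.7% (17.1 to 18.3) of SS and 7.41% (6.59 to 8.33) of WT long peaks. Uniform placement of the same numbers gave 11.4% and 2.89%, so the folds were 1.54 in SS and 2.56 in WT cells. Over peaks of any length the shares with another long peak within 10 kb were 10.5% and 2.79%. At 100 kb the folds were 1.01 and 1.16. As many peaks taken just under 500 bp, down to 439 bp in SS and 422 bp in WT cells, had folds of 1.01 and 1.38 at 10 kb. At 10 kb clustering was thus larger for the long peaks than for those next to them in length. The 3508 longest SS peaks, as many as the WT list had, gave a fold of 4.32, above that of WT cells. This choice also raised the minimum length in SS cells above 500 bp, so number and length changed together. At common minimum lengths the fold stayed higher in WT cells. It was 1.20 against 1.04 at 400 bp, 98.4 against 17.7 at 750 bp and 601 against 125 at 1000 bp. The observed shares were not higher in WT cells, with 12.1% against 39.4%, 19.4% against 19.7% and 42.5% against 43.4%. Fewer peaks give a smaller expected share, and at 750 bp there were 155 in WT against 1216 in SS cells. These folds thus do not compare the strength of clustering between the genotypes.

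Part of the clustering sat in few bins. The dense bins are the 1% of 24020 autosomal bins with the most sequence covered by Ezh2 peaks of both genotypes, so they were not ranked by pRb. They held 5.47% (5.11 to 5.85) of long SS and 6.10% (5.36 to 6.94) of long WT peaks. Over all peaks they held 1.26% and 1.20%. The share grew with length: 54.3% (47.7 to 60.7) of the 221 SS peaks and 72.5% (57.2 to 83.9) of the 40 WT peaks of at least 1000 bp lay there. Outside these bins the clustering fold at 10 kb was 1.31 in SS and 1.52 in WT cells, and that of the peaks just under 500 bp was 0.976 and 1.06.

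**Figure D3:**
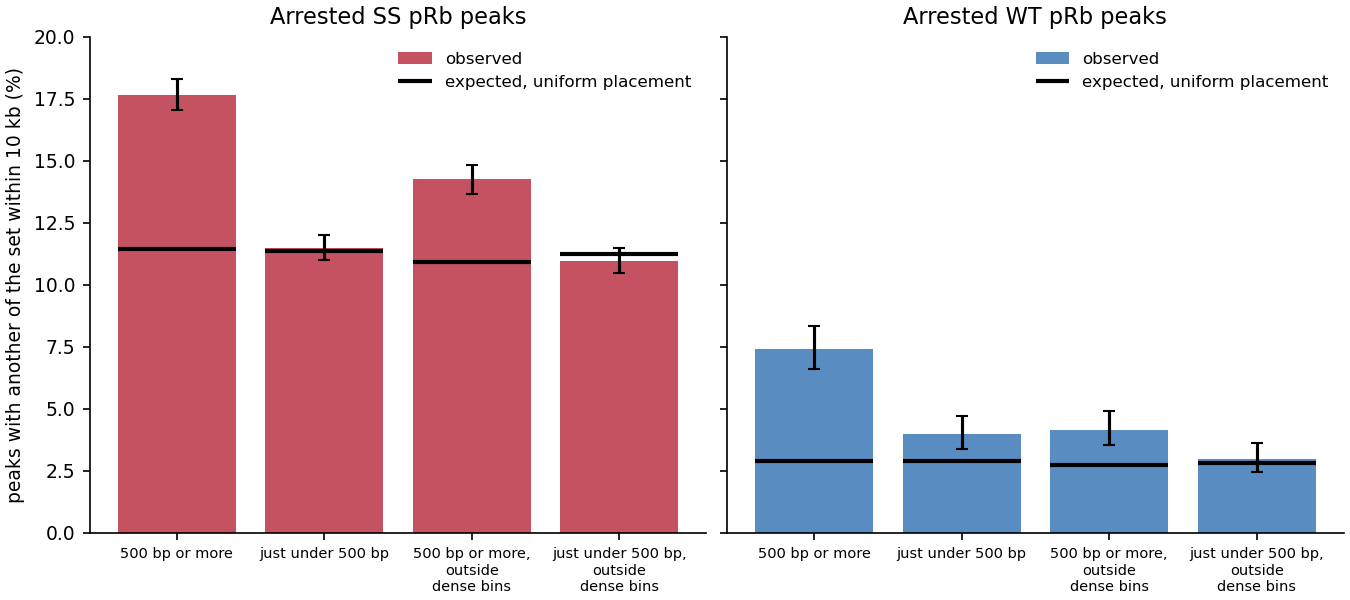
Share of pRb peaks with another peak of the same set within 10 kb (y axis, %; bars, with Wilson 95% intervals) in arrested SS and arrested WT cells, for peaks of 500 bp or more and for as many peaks just under 500 bp, in all bins and outside the 240 dense bins. Black lines give the share for uniform placement, and long peaks exceed it in all 4 cases, by 1.31 to 2.56 times.

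The bins with most long peaks lay on few chromosomes and had long peaks in both genotypes. On chromosome 1 the bin at 85000001-85100000 held 27 long peaks in SS and 6 in WT cells, and the bin at 85200001-85300000 held 21 and 14. On chromosome 5 the neighbouring bins at 14900001-15000000, 15000001-15100000 and 15100001-15200000 held 19, 12 and 24 long peaks in SS and 16, 10 and 10 in WT cells. The bin on chromosome 8 at 19900001-20000000 held 23 in SS and 10 in WT cells, and that on chromosome 4 at 145200001-145300000 held 22 and 4. On chromosome 1 at 90100001-90200000 there were 11 and 10. All 8 of these bins were among the dense ones. Their long peaks scored low, with medians of 38.9 to 61.1 in SS and 29.3 to 51.5 in WT cells.

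In these 8 bins long peaks covered 9.80 to 26.9 kb of each 100 kb in SS and 2.24 to 14.3 kb in WT cells. The Ezh2 lists had 44 to 87 peaks in SS and 40 to 82 in WT cells in each of them, where the mean bin had 47.4 and 33.7. The proliferating H3K27me3 lists had 12 to 31 SS and 9 to 29 WT peaks in 7 of the 8 bins, and 2 and 0 in the bin on chromosome 4, where the mean bin had 6.94 and 5.45. The arrested H3K27me3 lists shared this excess in only some of the bins. They had 1 to 27 SS and 12 to 39 WT peaks in the 8 bins, where the mean bin had 8.69 and 26.3. The arrested SS list lay above its mean only on chromosome 8, with 14 peaks, and on chromosome 1 at 90100001-90200000, with 27. The arrested WT list lay above its mean in the bins on chromosomes 8 and 4, with 37 and 34 peaks. On chromosome 1 it did so at 85200001-85300000, with 29, and at 90100001-90200000, with 39. Outside the 1 Mb bins that hold a dense bin, counts of long peaks per Mb had a variance of 1.58 times their mean in SS and 1.17 times in WT cells, where uniform placement gives 1. With those bins the values were 4.15 and 1.77. Over 2384 bins of 1 Mb the numbers of long SS and long WT peaks had a Spearman's rho of 0.0461, too weak in such sparse counts to be a finding.

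The next comparison asked whether long pRb peaks coincided with Ezh2. In SS cells 4700 long peaks (32.5%, 31.7 to 33.2) overlapped an Ezh2 peak of SS cells, against 31.8% expected, a fold of 1.02. In WT cells 826 long peaks (23.5%, 22.2 to 25.0) overlapped an Ezh2 peak of WT cells, against 22.0% expected, a fold of 1.07. Over all pRb peaks the shares were 16.7% and 10.5%, and the shorter peaks had folds of 1.10 in both genotypes. With the Ezh2 list of the other genotype the folds were 1.07 for long SS and 1.07 for long WT peaks, where the shares over all peaks were 11.7% and 15.2%. At matched length the share of long pRb peaks that met Ezh2 was thus close to placement, and the folds of long peaks were not above those of shorter ones. By score, the fold with the list of the same genotype was 1.16 in the highest and 0.808 in the lowest quartile of long SS peaks, and 1.15 and 1.04 in those of long WT peaks.

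Folds with Ezh2 were higher in the longer peaks when all bins were counted. For 500 to 599 bp they were 1.00 in SS and 1.04 in WT cells, for 750 to 999 bp 1.14 in SS and 1.46 in WT cells, and for 1000 bp or more 1.33 in SS and 1.84 in WT cells. Outside the dense bins, peaks of at least 750 bp had folds of 1.01 (0.938 to 1.09) in SS and 1.27 (0.973 to 1.60) in WT cells, so both intervals held 1 there. Over all long peaks in the dense bins, which were ranked by Ezh2 and so are not independent of it, the folds were 1.60 and 2.30, and outside them 0.985 (0.960 to 1.01) and 0.983 (0.920 to 1.05). The Ezh2 peaks touched by long pRb peaks had a median fold enrichment over background, as the authors' caller gave it, of 3.56 in SS and 3.33 in WT cells, against 3.56 and 3.46 over all Ezh2 peaks of the same list.

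With H3K27me3 of arrested cells, long SS peaks lay below placement and long WT peaks did not. In SS cells 1559 long pRb peaks (10.8%, 10.3 to 11.3) overlapped a peak of the arrested SS H3K27me3 list, against 11.9% expected, a fold of 0.903 (0.862 to 0.946). In WT cells 856 long peaks (24.4%, 23.0 to 25.9) overlapped a peak of the arrested WT list, against 23.1% expected, a fold of 1.06 (0.997 to 1.12). Over all pRb peaks the shares were 9.27% in SS and 13.7% in WT cells, and the folds of shorter peaks were 1.09 in both. Crossed between genotypes, long SS peaks met the arrested WT list at 1.05 times and long WT peaks met the arrested SS list at 1.11 times expectation, where the shares over all peaks were 14.3% and 9.72%. The lists themselves differed: the arrested SS list had 208802 autosomal peaks of median length 439 bp, and the arrested WT list 632166 of 138 bp. With 1 library each, genotype and library cannot be told apart.

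The value of long SS peaks depended on region and score. Placed anywhere within their own bin of 1 Mb, long SS peaks would meet the arrested SS list 0.877 times as often as placed over the whole chromosome, and against that local share the fold was 1.03. For long WT peaks the same regional factor was 0.998 with the arrested SS list and 1.01 with the arrested WT list. In the lowest score quartile the fold of long SS peaks with the arrested SS list was 0.615, and in the highest 1.06. In WT cells the fold with the arrested WT list was 1.04 in the lowest and 1.08 in the highest quartile.

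The H3K27me3 lists of proliferating cells held longer peaks, with medians of 705 bp in SS and 735 bp in WT cells. Long SS pRb peaks overlapped the proliferating SS list in 16.2% (15.6 to 16.8) of cases, 1.01 times expectation, and the proliferating WT list in 12.9% (12.4 to 13.5), 0.989 times. Long WT peaks overlapped the proliferating SS list in 20.0% (18.7 to 21.3) of cases, 1.25 times expectation, and the proliferating WT list in 16.7% (15.5 to 17.9), 1.28 times. Over all SS pRb peaks the shares with the SS and the WT list were 14.5% and 11.9%, and over all WT pRb peaks 15.2% and 12.4%. The folds of shorter peaks, with the SS list first, were 1.09 and 1.09 in SS and 1.15 and 1.14 in WT cells. Over all bins, long SS peaks thus lay below the shorter SS peaks and long WT peaks above the shorter WT ones. Outside the dense bins the folds, with the SS list first, were 0.950 and 0.925 for long SS and 1.12 and 1.15 for long WT peaks. Those of long WT peaks were thus near the folds of shorter WT peaks over all bins. For shorter peaks, folds outside the dense bins or within 1 Mb were not computed. Against placement within the same 1 Mb, the fold with the list of the same genotype was 1.13 for long SS and 1.24 for long WT peaks.

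The longest peaks of both genotypes met the proliferating mark more often. At 1000 bp or more the fold with the list of the same genotype was 2.72 in SS and 3.56 in WT cells. Outside the dense bins the folds over all long peaks were 0.950 (0.913 to 0.988) in SS and 1.15 (1.06 to 1.25) in WT cells. The 945 SS peaks of at least 750 bp outside the dense bins met the proliferating SS list in 180 cases, 1.08 times expectation (0.944 to 1.23). The 99 such WT peaks met the proliferating WT list in 28 cases, 1.89 times (1.36 to 2.53). Among arrested H3K27me3 peaks of at least 2 kb, 320 long SS peaks (2.21%) met one of the SS list, 0.783 times expectation, against 2.7% of all SS peaks. In WT cells 40 long peaks (1.14%) met one of the WT list, 1.97 times expectation, against 0.564% of all WT peaks.

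Shorter peaks met H3K27me3 peaks of at least 2 kb at folds of 1.01 to 1.06 in SS and 1.10 to 1.14 in WT cells. For long peaks too, the fold with those of each of the 4 lists was lower in SS than in WT cells. That difference was not tested. Long SS peaks met those of the arrested WT list at 1.09 times expectation, with a share over all SS peaks of 0.519%, but the interval, 0.886 to 1.34, held 1. They met those of the proliferating SS and WT lists at 0.907 and 0.913 times, with shares over all SS peaks of 8.93% and 7.52%. Long WT peaks met those of the arrested SS list at 1.13 times, with a share over all WT peaks of 2.95%, and the interval, 0.945 to 1.36, held 1. They met those of the proliferating SS and WT lists at 1.25 and 1.24 times, with shares over all WT peaks of 9.61% and 8.08%. Against placement within the same 1 Mb the folds of long SS peaks with the proliferating SS and WT lists turned above 1, to 1.06 and 1.07, and those of long WT peaks were 1.20 and 1.18. With the arrested list of the same genotype the local folds were 0.953 for long SS and 1.71 for long WT peaks.

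**Figure D4:**
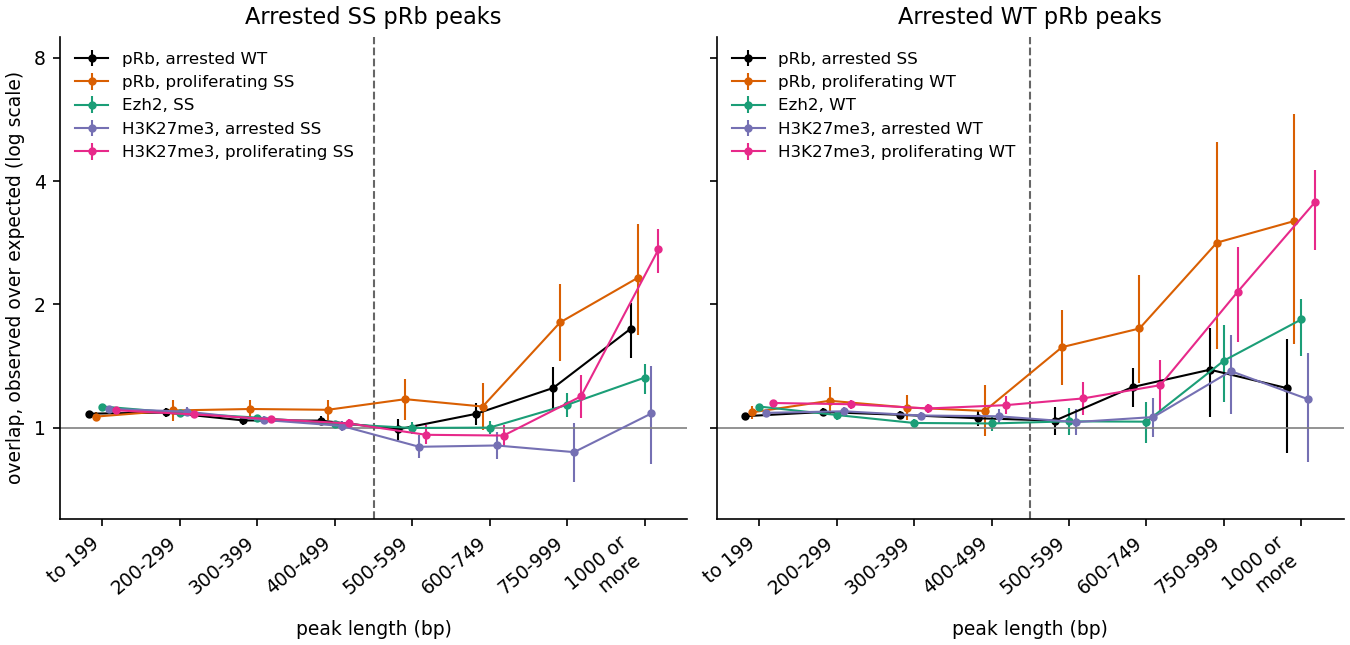
Overlap of arrested pRb peaks with 5 other lists, as the observed over the expected share (y axis, log scale; bars are Wilson 95% intervals), by peak length in bp (x axis), for SS and WT cells; the dashed line marks 500 bp. Most values lie near 1 up to 749 bp, and they are highest at 1000 bp or more for proliferating H3K27me3, 2.72 in SS and 3.56 in WT cells.

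The last comparison asked whether the places were also marked by pRb in proliferating cells. Of long SS peaks, 591 (4.08%, 3.77 to 4.42) overlapped a proliferating SS pRb peak, 1.25 times expectation, and 1.72% of all SS peaks did. Of long WT peaks, 140 (3.99%, 3.39 to 4.69) overlapped a proliferating WT pRb peak, 1.72 times expectation, and 1.19% of all WT peaks did. Across genotypes, 463 long SS peaks met the proliferating WT list, 1.32 times expectation, and 161 long WT peaks met the proliferating SS list, 1.45 times, where the shares over all peaks were 1.27% and 1.66%. The shorter peaks had folds of 1.08 to 1.14 in the 4 pairings.

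Among the proliferating pRb, Ezh2 and H3K27me3 lists, only with proliferating pRb did the intervals of all 4 pairings lie above 1 outside the dense bins. There the folds were 1.14 (1.04 to 1.24) for SS and 1.50 (1.25 to 1.80) for WT peaks with the list of the same genotype, and 1.12 (1.01 to 1.24) and 1.38 (1.17 to 1.62) with the other. Over all bins, the intervals of shorter peaks lay above 1 with every one of these lists. Folds of shorter peaks outside the dense bins were not computed. By score, folds with the list of the same genotype were computed over all bins only. In WT cells the fold was largest in the lowest score quartile, 1.99, and smallest in the highest, 1.41. In SS cells it was 1.30 in the lowest and 1.19 in the highest.

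Long peaks lay alone, or together with many lists, more often than placement gave. Of the long SS peaks, 29.3% met none of the other 9 lists, and of the long WT peaks 26.4%, against 21.6% and 20.7% expected if the lists were placed independently. At the other end, 194 long SS peaks (1.34%) and 74 long WT peaks (2.11%) met 6 or more of the other lists, where 7.87 and 2.70 were expected. Of these, 82 SS and 30 WT peaks lay in the dense bins. Shorter peaks also exceeded placement at both ends, so neither excess was particular to long peaks. Of the shorter peaks, 48.8% in SS and 47.9% in WT cells met none of the other lists, against 43.2% and 42.9% expected. With 6 or more lists there were 847 shorter SS peaks (0.140%) and 627 shorter WT peaks (0.157%), against 17.1 and 12.0 expected. The lists of one antibody overlap each other, which the expectation does not allow for.

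**Figure D5:**
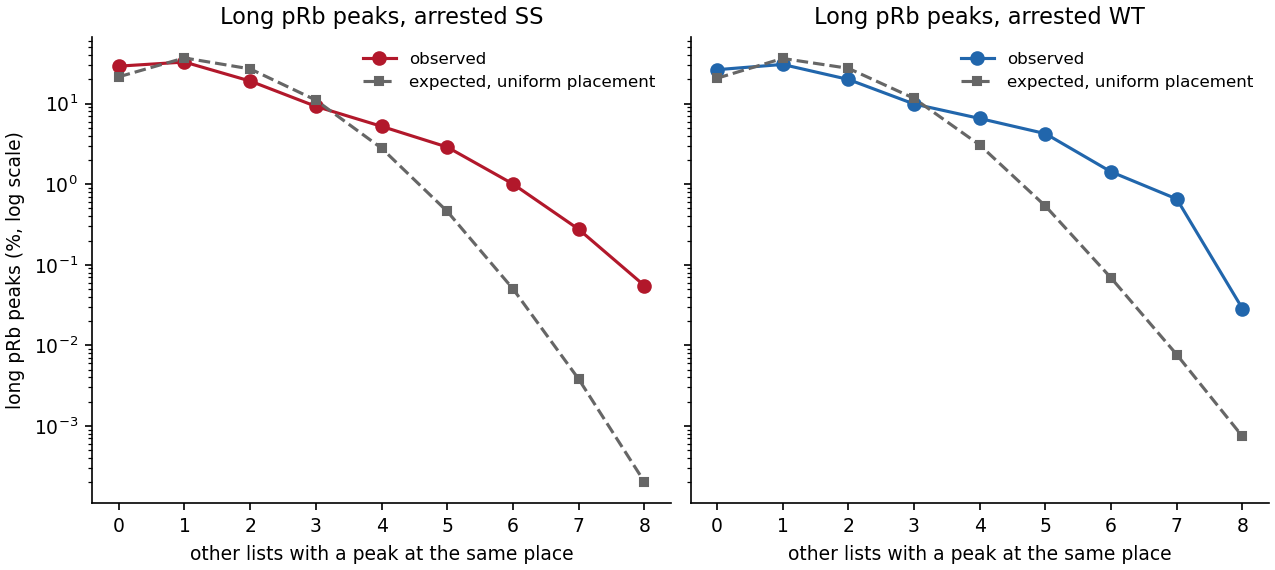
Share of long pRb peaks (y axis, %, log scale) by the number of other lists with a peak at the same place (x axis), in arrested SS and arrested WT cells, with the share for independent uniform placement in grey. Observed shares exceed the expected ones at 0 lists, 29.3% in SS and 26.4% in WT cells, and at 4 to 8 lists.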

How the data were processed

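Peak lists of 10 immunoprecipitated libraries were used, grouped by sample title. The inputs were not analysed here. The submitters' processing notes name Bowtie2, MACS2, HOMER and bedtools, and mm9 as the build. Settings and any control are not stated in the sources used here. The 4 pRb lists deposited by the authors hold a score per peak. The other 6 deposited lists hold a score, the fold enrichment as a ratio, and the -log10 p and q values of the authors' caller. Each list belongs to 1 library.

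Lists were taken as deposited, and positions are printed counted from 1. Expected shares were computed exactly, not by drawing positions, over the 24020 autosomal 100 kb bins that hold a peak of at least 1 list. Mappability within bins was not modelled. The computation was tested on simulated lists. The members, lists and comparisons were chosen with earlier results of these data known. Places were named only from the 5 highest scores, the 5 longest peaks and the 5 fullest bins per list, and from 10 pairs. The pairs were those leading by the lower rank as a share of its list. Some of these longest SS peaks and pairs are not named. No gene or sequence is given, because no mm9 annotation or genome was used. Depth is unknown. The computation ran in Python 3.11.15 with scipy 1.17.1, numpy 2.4.6 and pandas 2.3.3. Figures were drawn with matplotlib 3.10.9.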

Additional observations from a re-analysis of the deposited data

How the results depend on the processing

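Of 122 values under other settings, 55 stayed within a set margin, 61 moved further and 6 changed direction. The margin was the Wilson interval of the fold, 1.5 times for the number ratio and 10% for the score ratio. A change of direction was counted where the interval of the fold as reported lay on one side of 1. Another 2 folds, whose intervals held 1, also crossed it. Folds are observed over expected, and causes were not tested unless stated. Scaling the length and taking equal numbers were chosen after seeing the data.

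With a minimum length of 400 bp, the median score of long over shorter peaks was 0.580 in SS and 0.637 in WT, the fold of long WT in long SS peaks 1.69, that of long SS peaks with arrested SS H3K27me3 0.980, that with proliferating pRb 1.15 in SS and 1.30 in WT, and that of clustering 1.04 in SS and 1.20 in WT.

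With a minimum of 750 bp, the SS to WT number ratio was 7.85 and the score ratio 0.930 in SS and 0.813 in WT. The folds were 1.37 for long SS in WT peaks, 1.34 for long WT in SS peaks and 135 for long WT in long SS peaks, from 24 of 155 peaks. They were 1.18 in SS and 1.59 in WT with Ezh2, 1.31 with arrested WT H3K27me3, 1.94 in SS and 2.97 in WT with proliferating pRb, and 17.7 in SS and 98.4 in WT for clustering, where few peaks were left.

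With a minimum of 1000 bp, the score ratio was 0.447 in WT. The folds were 1.74 for long SS in WT peaks, 1.25 for long WT in SS peaks and 488 for long WT in long SS peaks, from 10 of 40 peaks. They were 1.33 in SS and 1.84 in WT with Ezh2, 1.08 with arrested SS H3K27me3, a change of direction, 1.17 with arrested WT H3K27me3, 2.32 in SS and 3.20 in WT with proliferating pRb, and 125 in SS and 601 in WT for clustering.

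Outside the dense bins the folds were 1.00 for long SS in WT peaks, 1.04 for long WT in SS peaks, 2.27 for long WT in long SS peaks, 0.985 in SS and 0.983 in WT with Ezh2, both below 1, 1.14 with proliferating pRb in SS, and 1.31 in SS and 1.52 in WT for clustering. With placement within 1 Mb, arrested SS H3K27me3 turned to 1.03, and long WT in long SS peaks gave 2.48. Over all positions Ezh2 gave 1.05 in SS.

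For the 1000 highest scores the folds were 7.80 for long WT in long SS peaks, from 4 of 1000 peaks with both lists restricted to their highest scores, whereas the quartiles restricted only 1 list, 1.15 in SS and 1.15 in WT with Ezh2, 1.07 with arrested SS H3K27me3, which thus turned, and 1.24 with proliferating pRb in WT. With the higher-scoring 50% of the other list, long SS in WT peaks turned to 0.850 and long WT in SS peaks to 0.845. The other folds were 2.98 for long WT in long SS peaks, 0.996 with arrested WT H3K27me3, below 1, and 1.37 with proliferating pRb in SS.

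Merging peaks within 1 kb gave a number ratio of 2.25, and a common minimum score 6.35. That minimum was 119, the median of the SS list, against a median of 106 in the WT list. It takes the scores of both lists as being on the same scale, which is not known. Clustering at 100 kb was 1.01 in SS and 1.16 in WT, and with long peaks within 1 kb merged 1.33 in SS and 2.19 in WT. With scaled lengths, long WT in long SS peaks gave 5.69 and clustering 1.83 in SS. With equal numbers the folds were 1.26 for long SS in WT peaks, 11.2 for long WT in long SS peaks, 1.06 with Ezh2 in SS, 1.51 with proliferating pRb in SS and 4.32 for clustering in SS.

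No paired analysis was possible because each group had 1 library and no value comes from a test across libraries. Leaving out a replicate was not possible either. The depth of the libraries, the scale of the pRb score and the mappability of the bins are unknown here. The differences between SS and WT therefore hold for these libraries.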
